A study of Homo sapiens with 10 samples.

Results

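The HSP70 and HSP90 families are the main ATP-driven chaperones of the cytosol, endoplasmic reticulum and mitochondria, and HSF1 is the transcription factor that induces the cytosolic ones. The 10 genes described here are HSPA1A, HSPA8, HSPA5, HSPA9, HSPA4, HSPH1, HSP90AA1, HSP90AB1, HSP90B1 and HSF1. They were chosen by name, and every probe set whose platform annotation names one of them was taken, which gave 33 of the 54613 probe sets on the arrays. Of these, 26 name the gene alone or HSPA1A together with its near-identical neighbour HSPA1B. The other 7 name a further gene. All 4 HSPA8 probe sets also list the small nucleolar RNA genes SNORD14C and SNORD14D, and 2 HSP90B1 probe sets list MIR3652, small RNA genes that lie inside HSPA8 and HSP90B1 in the RefSeq annotation. One HSPA1A probe set lists HSPA1L as well as HSPA1B.

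RNA was measured on 10 Affymetrix arrays, 5 of microvesicles released by K562 cells and 5 of the K562 cells themselves. K562 is an established human line from a chronic myeloid leukaemia and carries the BCR-ABL1 fusion, which both groups therefore share. Microvesicles are small membrane-bound particles shed by cells, with RNA inside, and the comparison asks how their RNA content differs from that of the cells. No treatment is given in the labels, which also do not say how microvesicles were separated or whether a microvesicle and a cell preparation with the same number came from 1 culture. The p-values therefore measure the spread between these preparations of 1 cell line. Each array received 100 ng of total RNA, and the values are log2 RMA values, an intensity scale. The deposited values were not fully alike between the groups. Their SD over probe sets averaged 1.93 on the microvesicle arrays and 2.34 on the cell arrays, and the array median 4.26 and 4.10. With equal RNA on each array, such values compare shares of that RNA, and the amount per vesicle or per cell was not measured.

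Arrays of one kind resembled each other, less so among microvesicles. Pearson correlations over probe sets, which are not independent replicates, were 0.911 to 0.944 among microvesicles, 0.990 to 0.997 among cells and 0.851 to 0.906 between the groups. ACTB control probe sets, a gauge of RNA integrity, differed between the 3' and the 5' end by 3.12 ± 0.34 in microvesicles and 2.39 ± 0.15 in cells on the log2 scale (SD, n = 5 each). For the GAPDH control probe sets the difference was 0.62 ± 0.13 in microvesicles and 0.45 ± 0.06 in cells, with overlapping ranges. The part of RNA integrity in the results below was not tested. The erythroid genes that define K562 lay above the array median on every array for all 8 measured, with 6 at a mean of 7 or more in microvesicles and 7 in cells. Their mean level ran from 7.94 to 8.99 in microvesicles and from 8.94 to 9.34 in cells. Lymphocyte, monocyte and fibroblast markers had mean levels of 4.96 to 5.34, 4.29 to 4.82 and 4.80 to 5.68 in microvesicles and of 4.37 to 4.77, 4.67 to 5.47 and 4.30 to 4.70 in cells. The exceptions at a mean of 7 or more were CD3D in both groups and LYZ in cells.

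HSP70 proteins bind exposed hydrophobic stretches of unfolded proteins in a cycle driven by ATP, with J-domain proteins as partners and nucleotide exchange factors to release the client. HSP90 takes over clients close to their folded state, among them many kinases, of which the BCR-ABL1 protein is one. HSF1 is the transcription factor that HSP70 and HSP90 hold inactive and that, once freed, binds heat shock elements and induces cytosolic chaperone genes. The chaperones of the endoplasmic reticulum, HSPA5 and HSP90B1, answer instead to the unfolded protein response, which acts through endoplasmic reticulum stress elements.

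The promoter stretches below are shown because their motif matches differ between the cytosolic and the reticulum chaperone genes. RefSeq promoter windows on GRCh38.p14, from 250 bases before to 50 bases after each start, were matched for 9 of the 10 genes, all but HSF1, and came to 12 windows. The 3-unit heat shock element was searched as GAANNTTCNNGAA or TTCNNGAANNTTC, the 2-unit form it contains as GAANNTTC or TTCNNGAA, and the endoplasmic reticulum stress element as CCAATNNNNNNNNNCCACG or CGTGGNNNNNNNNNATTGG. The paired letters of the 3-unit element and of the endoplasmic reticulum stress element stand for both strands. Those of the 2-unit form are different arrangements, each of which reads the same on both strands. Among all 35116 promoter windows, 0.49% held the 3-unit element, 13.5% the 2-unit form and 0.0769% the endoplasmic reticulum stress element. The stretches run 5' to 3' on the gene's strand and end before the start of transcription, with matches in capitals. Those of HSPA8, HSP90AA1 and HSP90AB1 mark the 3-unit element, that of HSPA1A the 2-unit form, and those of HSPA5 and HSP90B1 the endoplasmic reticulum stress element.
HSPA1A, chr6:31815417-31815464, plus strand: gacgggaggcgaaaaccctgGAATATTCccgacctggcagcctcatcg
HSPA8, chr11:123062159-123062386, minus strand: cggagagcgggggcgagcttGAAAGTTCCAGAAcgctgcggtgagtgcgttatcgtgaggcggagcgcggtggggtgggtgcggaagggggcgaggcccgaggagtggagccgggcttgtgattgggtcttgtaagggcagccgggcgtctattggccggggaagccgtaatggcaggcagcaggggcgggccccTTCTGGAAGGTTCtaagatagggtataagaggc
HSP90AA1, chr14:102087100-102087152, minus strand: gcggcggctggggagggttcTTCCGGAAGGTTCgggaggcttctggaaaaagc
HSP90AB1, chr6:44247758-44247863, plus strand: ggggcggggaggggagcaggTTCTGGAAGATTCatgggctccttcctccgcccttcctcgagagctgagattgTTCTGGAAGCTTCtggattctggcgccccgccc
HSPA5, chr9:125241371-125241429, minus strand: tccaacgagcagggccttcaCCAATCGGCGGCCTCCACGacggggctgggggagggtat
HSP90B1, chr12:103930196-103930359, plus strand: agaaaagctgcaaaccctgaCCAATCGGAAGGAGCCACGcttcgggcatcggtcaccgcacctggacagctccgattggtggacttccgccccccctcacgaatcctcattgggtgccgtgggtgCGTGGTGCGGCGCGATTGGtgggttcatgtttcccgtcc

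A match describes these letters only and is not a measured binding site. HSPA9 had 1 match to the 2-unit form, across the start of transcription, and the windows of HSPA4 and HSPH1 and the further starts of HSP90AA1 and HSP90AB1 held no match to any of the 3 motifs.

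Most of the chaperone probe sets were lower in microvesicles, and HSF1 was higher in 1 of its 2 probe sets. Of the 33 probe sets 26 fell and 1 rose at a limma adjusted p under 0.05, and 6 did not pass. Over all 54613 probe sets 27.0% fell and 35.4% rose. The median change of the 33 was -1.01 on the log2 scale (microvesicles minus cells, as for every change below), beside 0.27 over all probe sets. Changes depended on the level of a probe set, here its mean over the 10 arrays, and falls were most frequent at middle levels. Of the 22 members with a mean of at least 9, 19 fell and the other 3 did not pass, with a median of -0.94. Among all 2406 probe sets of that level 50.7% fell and 5.94% rose, with a median of -0.42. Of the 7 members with a mean of 6 to 9, 5 fell and 1 rose, with a median of -1.51. That share is close to the 66.3% that fell and 7.66% that rose among all 9429 such probe sets, whose median was -0.95. Of the 4 members under 6, 2 fell and the other 2 did not pass, beside 17.0% falling and 43.1% rising at that level. Groups did not overlap in 24 of the 33, with microvesicles below in 23 (22.0% of all probe sets) and above in 1 (24.0% of all). This too depended on level. At a mean of at least 9, microvesicles lay below without overlap in 16 of 22 members and in 1150 of all 2406 probe sets. At 6 to 9 they did so in 5 of 7 and in 5466 of 9429, and under 6 in 2 of 4 and in 5372 of 42778. After loess normalization by level, which removes a shift that depends on the level of a probe set, 19 fell and 1 rose, beside 21.9% and 18.2% of all probe sets. Without the 7 probe sets that name a further gene, 22 of 26 fell and 1 rose, and 17 fell and 1 rose after loess.

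**Figure D1:**
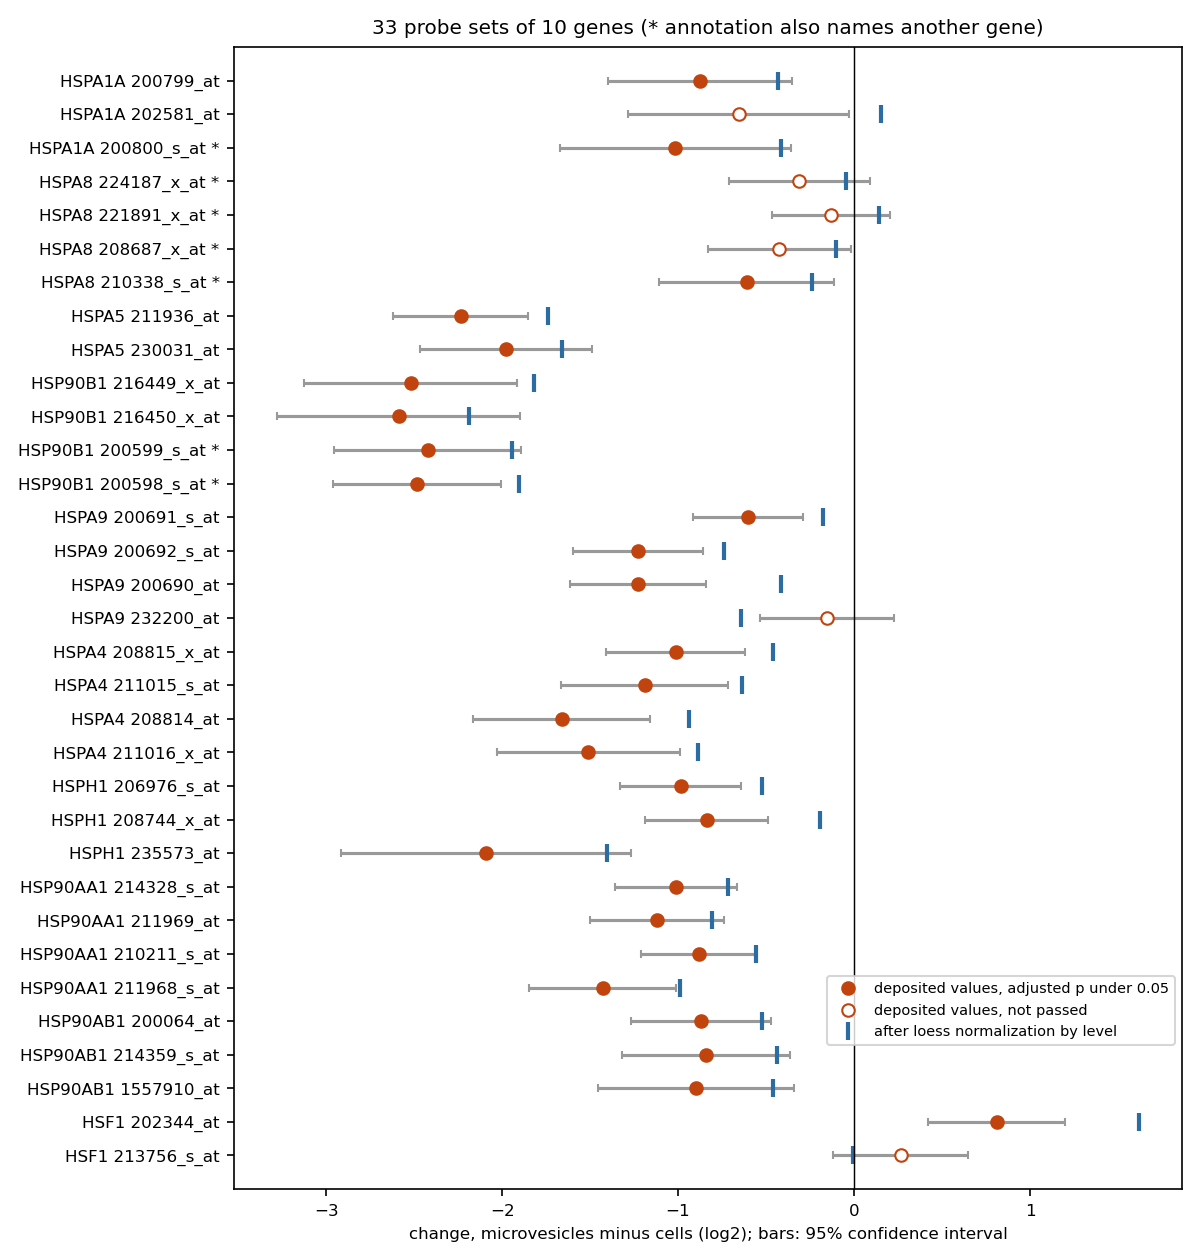
Change of each of the 33 probe sets, microvesicles minus cells on the log2 scale, with its 95% confidence interval from limma. Filled points passed an adjusted p under 0.05 and open points did not. Blue ticks give the change after loess normalization by level. The 4 probe sets of HSP90B1 and HSPA5 211936_at lie farthest to the left, between -2.24 and -2.59, and both HSF1 probe sets lie to the right of 0.

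The endoplasmic reticulum pair showed the largest falls among the lead probe sets, meaning the brightest one per gene that names no further gene (for HSPA8 the brightest of all). HSPA5 (BiP), the HSP70 of the reticulum lumen and a sensor partner of the unfolded protein response, read 9.56, 9.24, 9.66, 9.20 and 9.47 in microvesicles replicates 1 to 5, against 11.81, 11.88, 11.86, 11.29 and 11.47 in cells (probe set 211936_at). The lowest cell array thus lay above the highest microvesicle array by a wide margin. The change was -2.24 ± 0.18 (SE), 4.71-fold lower (limma adjusted p = 5.30e-07). Its second, dimmer probe set, 230031_at, changed by -1.98 ± 0.23 (limma adjusted p = 1.09e-05), from a microvesicle mean of 4.42 that is close to the array median of 4.26, so the size of that fall is uncertain.

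HSP90B1 (GRP94), the HSP90 of the reticulum lumen that folds integrins and Toll-like receptors, fell in all 4 of its probe sets. Probe set 216449_x_at read 8.17, 7.86, 8.03, 7.22 and 6.66 in microvesicles, against 10.35, 10.16, 10.39, 9.49 and 10.14 in cells. Cells replicate 4 was the lowest cell array in every HSP90B1 probe set, and it still lay above every microvesicle array. The change was -2.52 ± 0.28, 5.73-fold lower (limma adjusted p = 8.81e-06). The brighter 200599_s_at and 200598_s_at changed by -2.42 and -2.48. The fourth, 216450_x_at, changed by -2.59, but its microvesicle mean of 4.27 is at the array median, so the size of that fall is uncertain. After loess the falls of both genes ranged from -1.66 to -2.19, and all 6 probe sets passed. At mean levels between 10 and 11, where HSPA5 211936_at and HSP90B1 200599_s_at lie, the 10th percentile of all probe sets was -1.15. Matches to the endoplasmic reticulum stress element stand in both promoters shown above, and a relation of these matches to the falls was not tested.

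**Figure D2:**
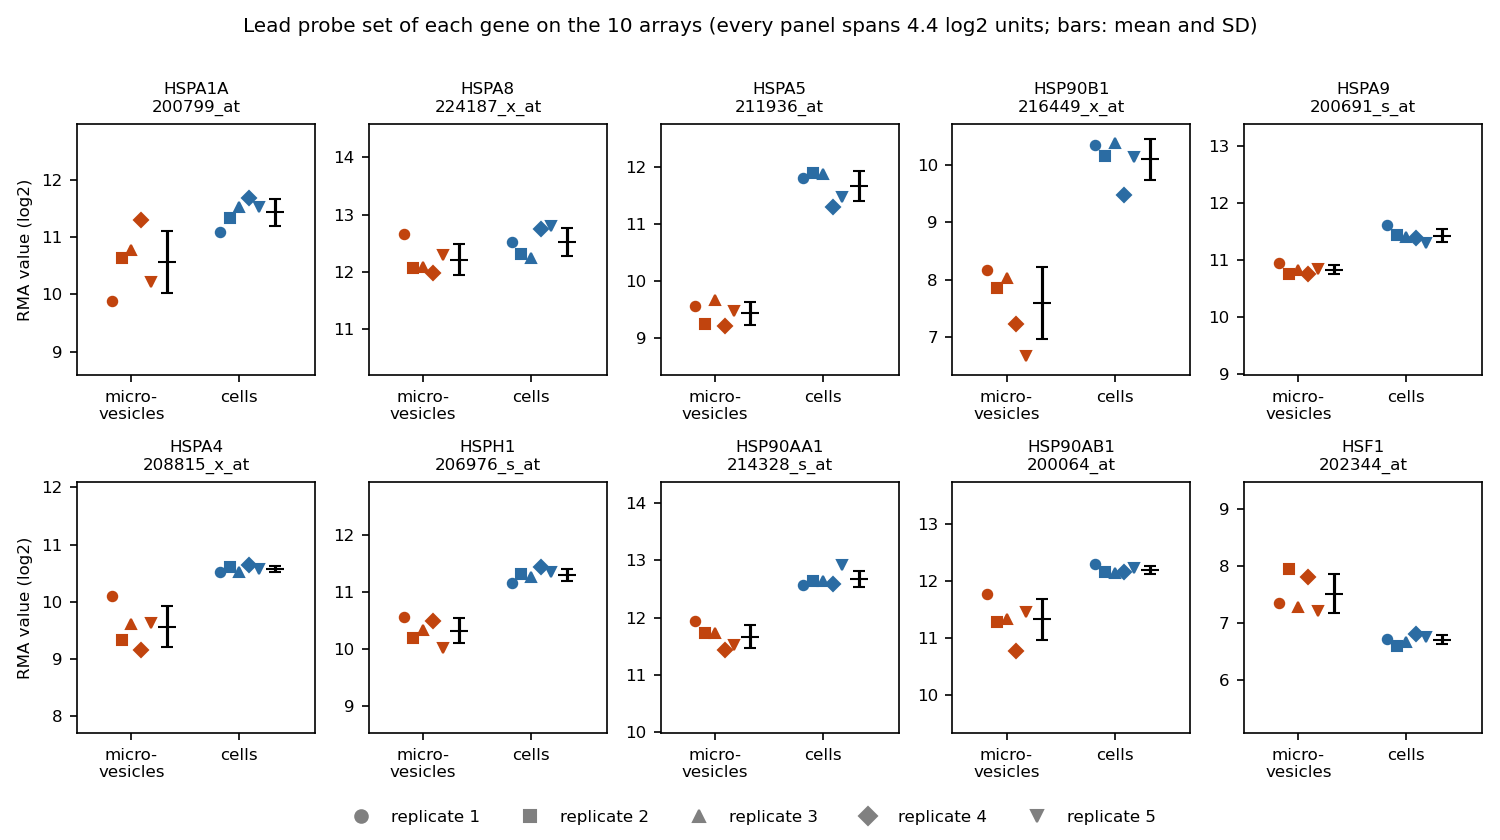
RMA values (log2) of the lead probe set of each gene on the 5 microvesicle arrays (left, orange) and the 5 cell arrays (right, blue). The lead probe set is the brightest one that names the gene alone or HSPA1A and HSPA1B, and for HSPA8 the brightest of all. Symbols mark the replicate number and bars the mean and SD. HSPA5 and HSP90B1 show the widest gap, HSPA8 and HSPA1A overlap, and HSF1 has microvesicles above cells.

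The cytosolic HSP90 genes fell in all 7 probe sets. HSP90AA1 encodes the stress-inducible form, and its probe set 214328_s_at read 11.95, 11.72, 11.73, 11.43 and 11.51 in microvesicles, against 12.58, 12.64, 12.64, 12.59 and 12.92 in cells. Groups did not overlap in any of its 4 probe sets. Changes ran from -0.88 to -1.43, with -1.01 ± 0.16 for 214328_s_at (limma adjusted p = 0.000168), and all 4 passed after loess, at -0.56 to -0.99.

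HSP90AB1 encodes the constitutive form. Its probe set 200064_at read 11.78, 11.28, 11.34, 10.77 and 11.46 in microvesicles, against 12.30, 12.15, 12.14, 12.16 and 12.24 in cells. Microvesicles replicate 4 was the lowest in all 3 HSP90AB1 probe sets, and the groups did not overlap. The change was -0.87 ± 0.19 (limma adjusted p = 0.00145), and the other 2 probe sets changed by -0.84 and -0.90. After loess 200064_at still passed (-0.53), while 214359_s_at (-0.44, limma adjusted p = 0.0851) and 1557910_at (-0.46, limma adjusted p = 0.127) did not. Both HSP90 genes have processed pseudogenes, so transcripts of near-identical copies, where present, cannot be separated in these probe sets.

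HSPA8 (HSC70), the constitutive HSP70 of the cytosol that also uncoats clathrin vesicles, had the smallest change among the lead probe sets of the 10 genes. Probe set 224187_x_at read 12.65, 12.06, 12.08, 11.98 and 12.29 in microvesicles, against 12.52, 12.32, 12.24, 12.75 and 12.79 in cells. The groups overlapped, and replicate 1 of microvesicles exceeded 3 of the 5 cell arrays. The change was -0.31 ± 0.19 (limma adjusted p = 0.155, 95% confidence interval -0.71 to 0.09). Probe sets 221891_x_at (-0.13) and 208687_x_at (-0.42) did not pass either. The least bright one, 210338_s_at, changed by -0.61 ± 0.23 (limma adjusted p = 0.0344), a call that was lost after loess (-0.24) and without any one of microvesicles replicates 2, 3 and 4 or cells replicates 1, 4 and 5 (limma adjusted p 0.0577 to 0.0868). Without microvesicles replicate 1, 224187_x_at (-0.42) and 208687_x_at (-0.52) passed at limma adjusted p 0.0461 and 0.0247. With arrays centred on their median both passed too (-0.47, 0.0472 and -0.58, 0.0196), as did 208687_x_at with a trended robust eBayes (0.0169).

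HSPA1A, the strongly heat-inducible HSP70, differed widely between microvesicle preparations, with an SD of 0.55 for its lead probe set that only that of HSP90B1 (0.63) exceeded. Its probe set 200799_at, shared with HSPA1B, read 9.88, 10.63, 10.78, 11.31 and 10.22 in microvesicles, against 11.09, 11.34, 11.53, 11.69 and 11.54 in cells. Microvesicles replicate 4 lay inside the range of the cells, and the other 4 lay below it. The change was -0.87 ± 0.24 (limma adjusted p = 0.00758), and -0.43 after loess (limma adjusted p = 0.243, not passed). Probe set 200800_s_at read 10.54 in microvesicles replicate 4 and 8.64 to 8.98 in the other microvesicle arrays, against 9.86 to 10.50 in cells, so that replicate 4 lay above every cell array. This probe set changed by -1.02 ± 0.31 (limma adjusted p = 0.0116), and it did not pass after loess (-0.41, limma adjusted p = 0.354) or a second quantile normalization (-0.47, 0.274). For 202581_at the change of -0.66 ± 0.29 did not pass (limma adjusted p = 0.0642). It passed without microvesicles replicate 4 (-0.83, limma adjusted p = 0.025), microvesicles replicate 3 (-0.80, 0.0362) or cells replicate 1 (-0.78, 0.0466), with the replicate number as a block (0.0357) and with arrays centred on their median (-0.81, 0.0296). Its sign turned after loess (0.15).

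The arrays did not rank alike for all genes. Microvesicles replicate 4 was the lowest microvesicle array for 19 of the 33 probe sets, among them all of HSP90AA1, HSP90AB1 and HSPA8, and the highest for 6, among them all 3 of HSPA1A. Microvesicles replicate 1 was the highest for 21. Among cells, replicate 4 was the highest array for 12 probe sets, all 3 of HSPA1A included, and the lowest for 11, all 4 of HSP90B1 included. Spread was larger in microvesicles for 29 of the 33 probe sets, and for 51361 of all 54613. The median SD of the 33 was 0.36 in microvesicles against 0.22 in cells (0.46 and 0.15 over all probe sets).

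HSPA9 (mortalin), the HSP70 of the mitochondrial matrix that drives protein import, fell in 3 of 4 probe sets. Probe set 200691_s_at read 10.95, 10.76, 10.83, 10.76 and 10.84 in microvesicles, against 11.61, 11.43, 11.41, 11.39 and 11.31 in cells. Both groups were tight and did not overlap. The change was -0.60 ± 0.15 (limma adjusted p = 0.0033), and it did not pass after loess (-0.18). Probe sets 200692_s_at and 200690_at both changed by -1.23, and the first of these also passed after loess (-0.74). The fourth, 232200_at, lay at 3.09 in microvesicles and 3.24 in cells, below the array medians. It did not pass in the deposited values and passed as lower after loess (-0.64).

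HSPA4 and HSPH1 belong to the HSP110 family, which exchanges nucleotide on HSP70 and releases its client. HSPA4 208815_x_at read 10.09, 9.33, 9.60, 9.15 and 9.62 in microvesicles, against 10.53, 10.61, 10.52, 10.64 and 10.57 in cells. All 4 HSPA4 probe sets fell with no overlap, by 1.01 to 1.66 on the log2 scale, and all passed after loess (-0.46 to -0.94). HSPH1 206976_s_at read 10.56, 10.20, 10.34, 10.49 and 10.02 in microvesicles, against 11.16, 11.31, 11.27, 11.44 and 11.36 in cells, a change of -0.98 ± 0.16 (limma adjusted p = 0.000194; -0.52 after loess). The bright HSPH1 probe sets changed by -0.98 and -0.84 and the dim one, 235573_at, by -2.09 ± 0.38. In microvesicles 235573_at ran from 3.73 in replicate 4 to 6.04 in replicate 5, so its size is the least certain of the 3. The fall of 208744_x_at did not pass after loess (-0.19).

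HSF1 was the only one of the 10 genes with a probe set that rose. Probe set 202344_at read 7.35, 7.95, 7.28, 7.80 and 7.20 in microvesicles, against 6.72, 6.59, 6.67, 6.80 and 6.75 in cells. Every microvesicle array lay above every cell array. The change was 0.81 ± 0.18, 1.75-fold higher (limma adjusted p = 0.00197), and it was 1.62 after loess, 1.63 after a second quantile normalization and 0.65 with arrays centred on their median, past the threshold in each. At mean levels of 7 to 8 the median of all probe sets was -1.01 and the 90th percentile 0.23, so HSF1 lay above 9 in 10 probe sets of like level. The second HSF1 probe set, 213756_s_at, lay at 4.20 in microvesicles and 3.94 in cells, near the array medians, and did not pass (0.26 ± 0.18, limma adjusted p = 0.206; -0.0046 after loess). The rise of HSF1 thus rests on 1 of 2 probe sets.

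**Figure D3:**
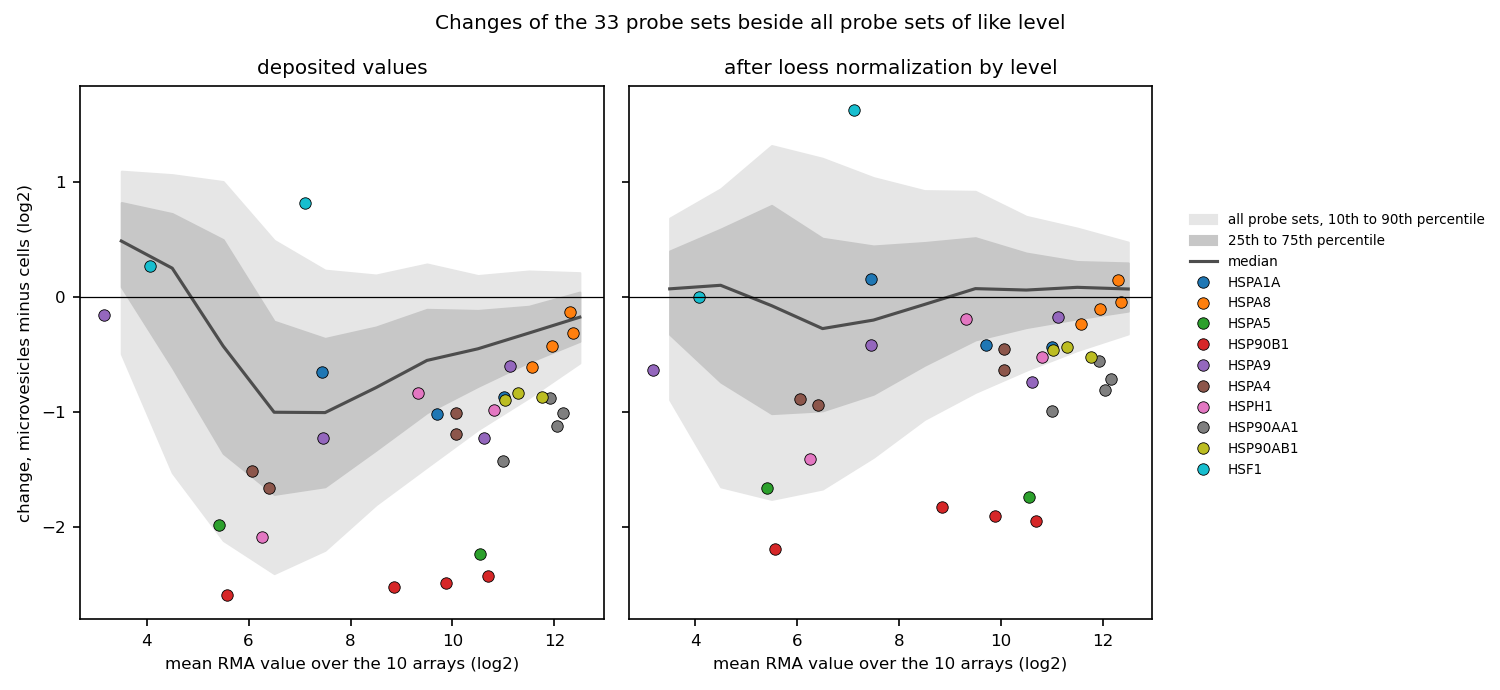
Change of the 33 probe sets against their mean RMA value over the 10 arrays, with the deposited values on the left and after loess normalization by level on the right. Grey bands and the line give the percentiles and the median of all probe sets in steps of 1 log2 unit. HSP90B1 lies below the 10th percentile throughout, as does HSPA5 211936_at, and HSF1 202344_at lies above the 90th percentile in both panels.

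Whether 2 of these genes changed unequally was tested within arrays for 6 pairs, by an exact 2-sided permutation test with p-values adjusted over the 6 pairs. The smallest p that 5 against 5 arrays allow is 0.00794 (0.0159 after adjustment here). The level of one probe set cannot be set against that of another, but the shift of their difference between groups can. HSPA5 minus HSPA8 shifted by -1.92 ± 0.25 (SE, n = 5 each, exact adjusted p = 0.0159), with no overlap between the groups. HSP90B1 minus HSP90AB1 shifted by -1.65 ± 0.31 (exact adjusted p = 0.0159), also with no overlap. HSPA5 therefore fell relative to HSPA8, and HSP90B1 relative to HSP90AB1, with shifts of -1.70 and -1.30 after loess. Neither was tested against the inducible cytosolic form of its family.

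HSF1 minus HSPA8 shifted by 1.12 ± 0.25 (exact adjusted p = 0.0159, no overlap), and by 1.66 after loess. The inducible and constitutive forms were not separated. HSP90AA1 minus HSP90AB1 shifted by -0.14 ± 0.12 (exact adjusted p = 0.302) and HSPA1A minus HSPA8 by -0.56 ± 0.38 (exact adjusted p = 0.238). The HSPA1A pair rested on microvesicles replicate 4, whose difference was -0.67, against -2.77 to -1.29 in the other microvesicle arrays and -1.43 to -0.71 in cells. Without that array the shift was -0.81 and passed (exact adjusted p = 0.0357). HSPA9 minus HSPA8 shifted by -0.29 ± 0.16 and did not pass (exact adjusted p = 0.167).

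**Figure D4:**
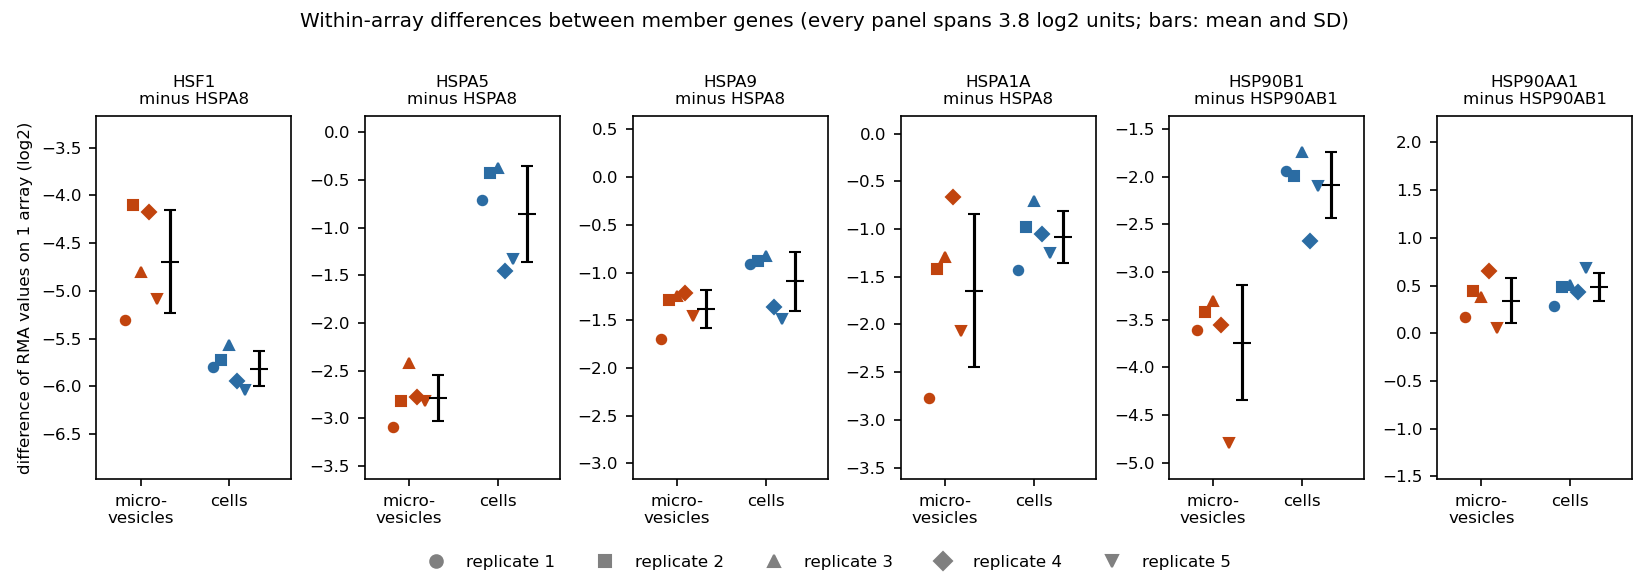
Difference between the lead probe sets of 2 genes on each array (log2), microvesicles left in orange and cells right in blue, with symbols for the replicate number and bars for the mean and SD. The groups are apart for HSF1 minus HSPA8, HSPA5 minus HSPA8 and HSP90B1 minus HSP90AB1, and overlap in the other 3 pairs.

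The rest of the pathway was read from 66 measured genes in 6 lists, each gene from its brightest single-gene probe set. In microvesicles 36 fell, 8 rose and 22 did not pass, against 30.8% falling and 34.6% rising among all 19775 genes read in that way. Their median change was -0.56, at median levels of 6.98 in microvesicles and 7.86 in cells. The shares over all genes do not allow for level. Among all probe sets with a mean of 6 to 9, 66.3% fell and 7.66% rose, with a median of -0.95. After loess 17 of the 66 genes fell and 15 rose, beside 18.5% and 25.3% of all genes. Their median was then -0.02, so the balance of this wider list depended on the scaling.

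Of 9 other HSP70 and HSP110 genes 5 fell and 2 rose, and 4 fell and 1 rose after loess. Their median levels were 4.84 in microvesicles and 5.86 in cells. Among all probe sets with a mean under 6, 17.0% fell and 43.1% rose. HSPA13, a microsomal HSP70-like ATPase, averaged 4.84 ± 0.49 in microvesicles and 8.30 ± 0.27 in cells (SD, n = 5 each), a change of -3.46 ± 0.24 (limma adjusted p = 1.41e-07; -2.71 after loess). HSPA4L, an HSP110 relative, changed by -2.25 ± 0.32. HSPA12B rose by 0.54 ± 0.20, to a mean of 4.75 in microvesicles, against 4.21 in cells, and did not pass after loess. The other rise was HSPA1L, at 1.02 ± 0.29 with overlapping groups (limma adjusted p = 0.00791), and it passed after loess (0.93). HSPA1L averaged 5.13 in microvesicles and 4.11 in cells, and it is named here after its value was seen. Among 13 HSP70 nucleotide exchange and adaptor genes 6 fell and the other 7 did not pass, while 2 fell and 5 rose after loess. This list had median levels of 8.24 in microvesicles and 8.81 in cells. Among all probe sets of 6 to 9, 66.3% fell and 7.66% rose. BAG3, the exchange factor of chaperone-assisted autophagy, changed by -1.77 ± 0.18 and BAG2, an inhibitor of the ubiquitin ligase CHIP, by -1.49 ± 0.28.

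Of 16 HSP90 co-chaperones with TRAP1 13 fell and 1 rose in the deposited values, and 4 fell and 2 rose after loess. Median levels were 7.66 in microvesicles and 8.35 in cells, and 66.3% of all probe sets of 6 to 9 fell and 7.66% rose. The largest falls were those of CDC37L1 (-2.23 ± 0.33), a relative of the kinase adaptor CDC37, and CHORDC1 (-1.58 ± 0.26). CDC37L1 averaged 4.64 in microvesicles, near the array median of 4.26, so the size of its fall is uncertain. FKBP8, a membrane-anchored immunophilin, rose by 0.92 ± 0.18 (limma adjusted p = 0.000823; 1.32 after loess). Of 10 other heat shock factors and HSF1 regulators 5 fell and 2 rose, and 3 fell and 3 rose after loess. They lay at median levels of 6.05 in microvesicles and 6.85 in cells, so the same shares of all probe sets stand beside them. The acetyltransferase genes CREBBP (-2.08 ± 0.36) and EP300 (-1.78 ± 0.18) fell most, by -1.45 and -1.33 after loess. Their microvesicle means of 5.05 and 4.77 are low, so the size of these falls is uncertain too. HSF4, a heat shock factor of the lens, rose by 1.27 ± 0.25 (limma adjusted p = 0.00085; 1.60 after loess) to a mean of 6.07 in microvesicles, against 4.80 in cells.

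Of 9 small heat shock protein genes 2 rose and the other 7 did not pass, at a median level of 4.19 in microvesicles and 4.44 in cells, and 1 fell and 2 rose after loess. Among all probe sets with a mean under 6, 43.1% rose and 17.0% fell. HSPB7, at 4.10 in microvesicles and 3.15 in cells, rose by 0.95 ± 0.20. Of 17 other heat shock response targets of HSF1, some of which stand in the lists above, 13 fell and 1 rose, and 7 fell and 2 rose after loess. Median levels of these targets were 7.49 in microvesicles and 8.38 in cells. Among all probe sets of 6 to 9, 66.3% fell and 7.66% rose. SERPINH1, the collagen chaperone of the reticulum, changed by -1.83 ± 0.24, and HSPA4L again showed the largest fall. The 1 rise was that of DNAJB1, the main heat-inducible J-domain partner of HSP70, at 0.52 ± 0.22 with overlapping groups (limma adjusted p = 0.0496; 1.27 after loess), and it did not pass with arrays centred on their median. It is named here after its value was seen.

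**Figure D5:**
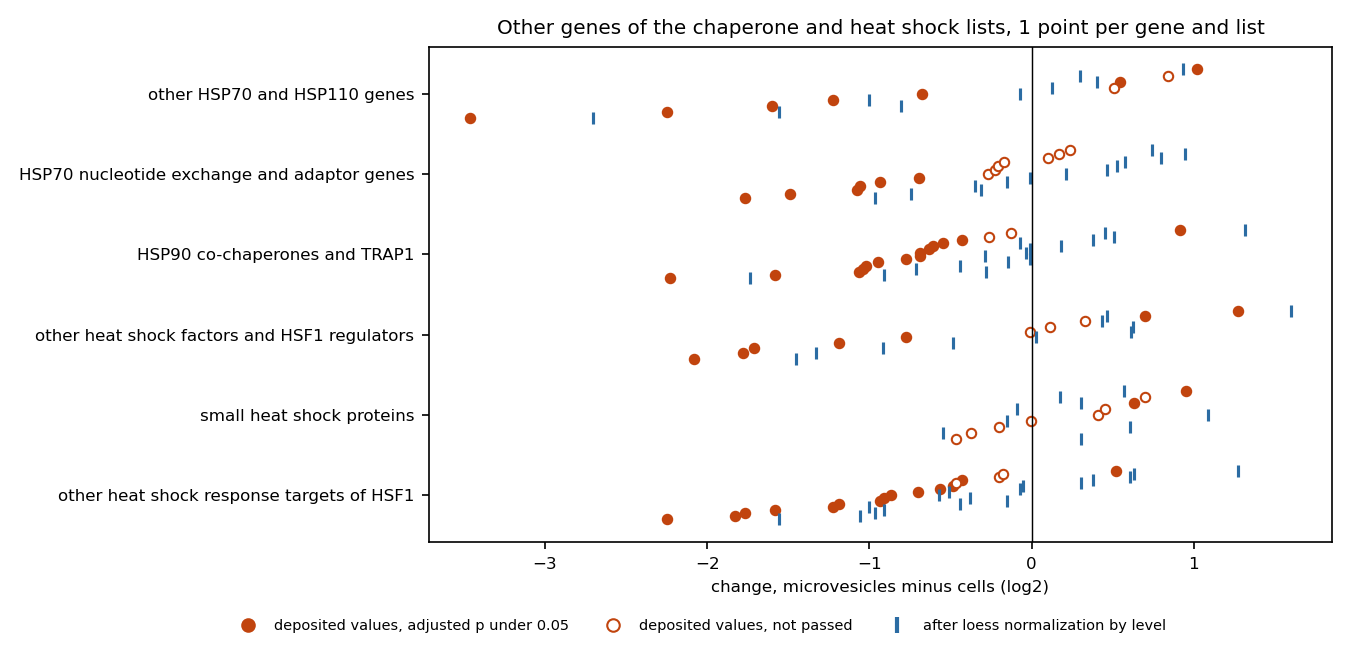
Change of each other gene of the 6 chaperone and heat shock lists, microvesicles minus cells on the log2 scale, 1 point per gene and list. Filled points passed an adjusted p under 0.05, open points did not, and blue ticks give the change after loess normalization by level. Falls prevail in the co-chaperone and target lists in the deposited values, and the ticks lie closer to and often beyond 0. Falls also prevail among all probe sets with a mean of 6 to 9 (66.3%).

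Profiles most like those of HSF1 and HSPA8 were looked for among 10352 single-gene probe sets with a mean of at least 6, by the root mean square difference of centred values over the 10 arrays. For HSF1 202344_at these were KLHL36 (0.11), HAGH (0.115) and DTX2P1-UPK3BP1-PMS2P11 (0.124), which changed by 0.75, 0.81 and 0.97. For HSPA8 224187_x_at they were MRPS26 (0.0673), a mitochondrial ribosomal protein gene, the splicing factor gene TRA2B (0.0938) and the J-domain gene DNAJC8 (0.0965), with changes of -0.31, -0.37 and -0.34 that did not pass.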

How the data were processed

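The deposited table holds log2 values, 1 per probe set and array, which the authors computed by RMA according to the submitters' processing notes. The RMA version is not given in the sources used here, and no detection calls came with the values. Per the labels' protocols, biotin-labelled cRNA was made from Trizol RNA. The number of arrays limits the precision. The 17 control probe sets were left out and 54613 tested. Of these, 41091 are annotated with 1 gene, 1801 with several and 11721 with none listed. Symbols come from the platform annotation, updated through gene numbers in the RefSeq table.

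Microvesicles were compared with cells by limma 3.58.1 (R 4.3.3), lmFit and eBayes, 1 mean per group, 2-sided, with Benjamini-Hochberg adjustment over all probe sets. The fit was tested on simulated data, with 4 false calls. It recovered 0 of 50 changes of 0.5 on the log2 scale, 17 of 50 of 1, and 49 of 50 each of 2 and 3. The simulation gave both groups the same spread, unlike these arrays. Alternatives were a replicate block, median centring, a second quantile normalization, loess by level, a filter on dim probe sets, a trended robust eBayes, array weights and leaving out each array. Single-gene probe sets were to lead each pair, and since HSPA8 has none its brightest shared one was used, a choice made after seeing the data. Named genes are all members, up to 2 falls and 2 rises per list that passed with no overlap, and the 3 nearest profiles of HSF1 and HSPA8. HSPA1L and DNAJB1 were named in addition, after their values were seen. Members and lists were chosen with earlier results of these data known. Listed genes without a single-gene probe set, AHSA1, HSF2 and HSPB11 among them, were not analysed here. Loess fitted each array against the mean array (span 0.4).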

Additional observations from a re-analysis of the deposited data

Results flagged for a closer look

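In 5 of the 66 sets of 5 arrays (33 probe sets in 2 groups), 1 array lay far from the other 4, and chance alone gives about 1 in 20. HSPA1A 200800_s_at read 10.54 in microvesicles replicate 4, against 8.64 to 8.98 in the other microvesicle arrays. The other microvesicle cases were HSP90AA1 210211_s_at in replicate 1 (11.80, others 11.34 to 11.44) and HSF1 213756_s_at in replicate 1 (4.71, others 4.03 to 4.12). Among cells, HSP90B1 216449_x_at read 9.49 in replicate 4 (others 10.14 to 10.39) and HSP90AA1 214328_s_at 12.92 in replicate 5 (others 12.58 to 12.64).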

How the results depend on the processing

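The count of 26 falling and 1 rising probe sets was 19 and 1 after loess and after a second quantile normalization, 29 and 1 with arrays centred on their median, and 25 to 28 falling with 1 rising when any 1 array was left out. The direction turned for HSPA1A 202581_at (0.25 after quantile normalization, 0.15 after loess), HSPA8 221891_x_at (0.079 and 0.14) and, after loess, HSF1 213756_s_at (-0.0046), none of which had passed. With the replicate number as a block 27 fell and 1 rose. The numbers share no stated source, their deviations correlated at -0.025 to 0.11 and 3 of 5 microvesicle arrays correlated best with their own number. The 66 other pathway genes moved from 36 falls and 8 rises to 15 and 16 after quantile normalization and 17 and 15 after loess. Their rises were 4 with median centring, 5 without dim probe sets and 4 to 9 with 1 array left out, 4 each without cells replicate 2, 3 or 5. HSPA1A minus HSPA8 ranged from -0.81 to -0.28 with 1 array left out. The causes were not tested. Without detection calls, falls to levels near the array median have no certain size.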
